A study of Drosophila melanogaster with 2 samples.

Results

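The Dpr, DIP, Beat and Side genes of Drosophila melanogaster were examined for regions enriched by chromatin immunoprecipitation and sequencing (ChIP-seq) of GFP-tagged espinas (esn). They are the 54 protein-coding genes, of 13945 on the chromosome arms, whose Ensembl symbol starts with dpr and a digit, DIP-, beat- or side. The 4 families hold 21 dpr, 11 DIP, 14 beat and 8 side genes. Membership rests on symbols alone and used no measured value, but the families were chosen with earlier results of these data known. The 2 samples were biological replicates of 1 group: whole white prepupae of both sexes, at the onset of metamorphosis, from a transgenic line that stably expresses esn with GFP at its C-terminus. Chromatin was sonicated and precipitated with an antibody against GFP. The labels give the age as unknown and do not name what drives the transgene. Espinas is a relative of Prickle with PET and LIM domains. No untagged group was examined and the control libraries were not analysed here, so enrichment through espinas and other recovery cannot be told apart.

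Dpr and DIP proteins are cell surface proteins with immunoglobulin domains, found on neurons. Each DIP binds a subset of Dprs on a partner cell, and such pairs take part in matching neurons with their synaptic targets in the visual system and at the neuromuscular junction. Beat and Side proteins form a second network of the same kind: Beat-Ia (beaten path) on motor axons binds Sidestep (side), which lies along the path and on muscle, and motor axons that lack either protein fail to leave their bundles properly. Because whole animals were used, enrichment in few cells and weak enrichment in many cannot be told apart.

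Most of these genes had no enriched region listed at the authors' reproducibility threshold. Within each enriched region the authors marked a summit, its point of greatest signal. It was assigned to a gene when it lay in the gene body or within 500 bases of the start of one of the gene's coding transcripts. In the IDR list, the regions that passed the authors' reproducibility threshold (irreproducible discovery rate), 7 of the 54 genes held a summit (13.0%, 95% Wilson interval 6.42 to 24.4), against 39.8% of the other 13891 coding genes. The members are long, with a median of 36.2 kb and a range of 3.74 to 379 kb, against a median of 2.16 kb for other genes, and long genes held summits more often. In the members' own length classes, weighted by how many members each class holds, 64.7% of the other genes had a summit, which corresponds to 34.9 of 54. With only 1 group there was no test, and the Wilson intervals cover counting error over genes.

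The shortfall ran through the length classes above 5 kb. Of the 4 members of 2 to 5 kb, 2 held a summit, next to 44.5% of other genes of that length. None of the 6 members of 5 to 10 kb did (other genes 59.2%), and 1 of the 8 of 10 to 20 kb did (62.3%). None of the 12 members of 20 to 40 kb held one, where 68.9% of other genes did. Of the 19 members of 40 to 80 kb 4 held one, against 68.0%, and of the 5 members of 80 kb or more none, against 68.8%. Other genes of 80 kb or more held a mean of 7.20 summits, and the members of that class, dpr6, dpr8, dpr21, side-III and DIP-lambda, held 0. Of these, dpr21 and DIP-lambda lie beyond the outermost summit of 2R, where no gene held one. Their starts were 2055806 and 4795537 bases from the nearest IDR summit.

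**Figure D1:**
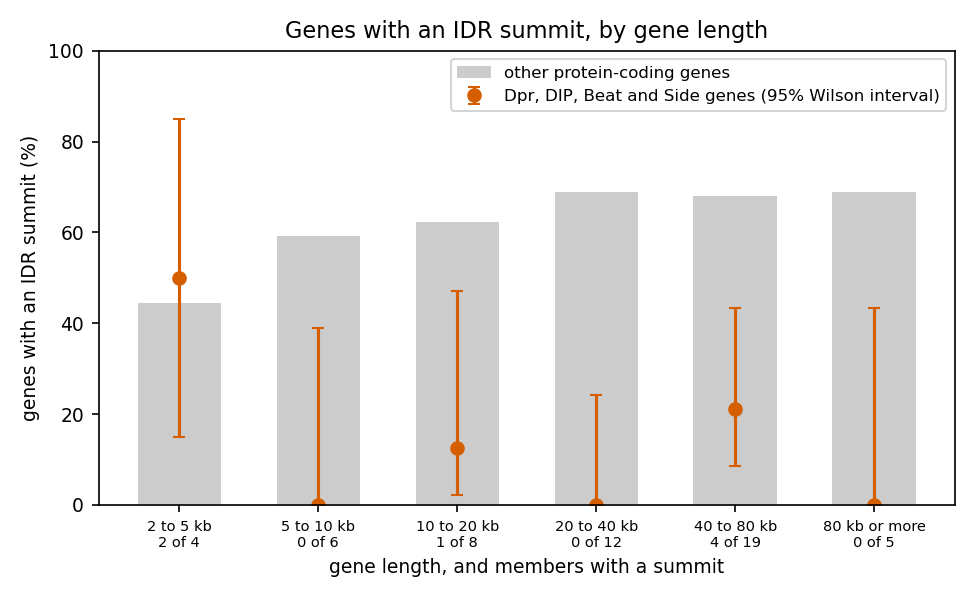
Share of genes with an IDR summit (y axis, percent) by gene length class (x axis): grey bars are other protein-coding genes, points the Dpr, DIP, Beat and Side genes with 95% Wilson intervals. Above 5 kb every point lies below its bar, with 0 of 12 members at 20 to 40 kb.

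Each of the 4 families was low. Among the dpr genes 2 of 21 held an IDR summit (9.52%, Wilson interval 2.65 to 28.9), where the length-weighted share of other genes was 62.4%. For DIP genes the count was 1 of 11 (9.09%, interval 1.62 to 37.7, other genes 64.6%). Beat genes gave 2 of 14 (14.3%, interval 4.01 to 39.9, other genes 67.3%) and side genes 2 of 8 (25.0%, interval 7.15 to 59.1, other genes 66.3%). The intervals of the families overlap, and differences between families were not tested. Each upper bound lies below the share of other genes of the same lengths, a share matched on length alone. Weighted by number of coding starts as well, the share for all members fell from 64.7% to 54.1%, under the upper bound for side. Such shares by family are not given here. Neighbouring members are not independent, which the intervals do not allow for.

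The member gene bodies added up to 2.52 Mb and held 11 summits, 0.0436 per 10 kb (exact Poisson interval 0.0218 to 0.0781). That interval treats summits as independent, although 4 of the 11 lay in beat-Ib and 3 in side-V, so it is likely too narrow. The length includes dpr21 (125 kb) and DIP-lambda (379 kb), which lie beyond the outermost summit of their arm. Other coding genes held 0.740 per 10 kb, and those of 20 kb or more 0.700. The members therefore carried fewer summits per length as well as per gene.

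**Figure D2:**
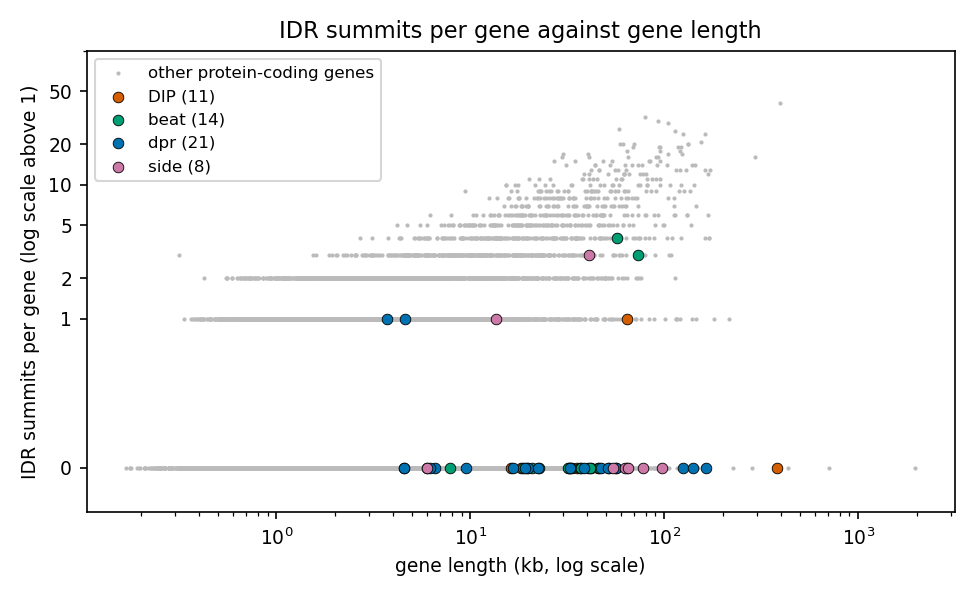
IDR summits per gene (y axis, log scale above 1) against gene length (x axis, kb, log scale): grey points are other protein-coding genes, coloured points the members by family. Most coloured points lie at 0, and the highest is beat-Ib with 4.

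The 14 IDR summits of the members belonged to beat-Ib (4), beat-IIIc (3), side-V (3), DIP-alpha, side-IV, dpr14 and dpr19 (1 each). Of them 10 lay in introns, 9 of these in introns other than the first, and 4 lay within 500 bases of a start. These places were set by the member's own starts alone. The beat-Ib intron summit at 15923091 lay 304 bases from the start of another coding gene, CG4793. In the whole list 4079 of 10918 summits lay in introns away from starts. These counts were not matched for gene length, and the members are long. None lay in an exon away from a start. Signal is the authors' enrichment value per region. No source used here gives its scale, and values are therefore compared only within a list. The whole IDR list ran from 164 to 8950 with a median of 328, and 6 of the 14 member summits exceeded that median.

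The strongest lay in beat-Ib (FBgn0028645, 2L, 15905134 to 15962435, minus strand), one of 3 neighbouring genes that include the founding member beat-Ia. Its region at 15910975 to 15911659 had a signal of 2565, rank 151 of 10918. It ranked 148 in replicate 1 (signal 1688) and 195 in replicate 2 (signal 873). The summit was 51163 bases downstream of the start, near the gene's far end, and 419 bases from the start of lncRNA:CR44867, a non-coding gene. Another pair of beat-Ib summits followed within 2 kb, at 388 and 474 bases from the start of lncRNA:CR44868. The first had a signal of 767, rank 1797, with replicate ranks of 2631 (signal 373) and 1139 (signal 388). The second had a signal of 264, rank 6908, with replicate ranks of 9786 (signal 118) and 4463 (signal 149). These 3 form a cluster towards the 3′ end of a gene whose own start held none.

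The fourth beat-Ib summit (15923091, signal 221) lay inside an insertion of the transposable element INE-1 and 304 bases from the start of the nested gene CG4793. INE-1 occurs in many copies in the fly genome, and whether reads of other copies contributed was not tested.

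DIP-alpha (FBgn0052791, X, 3507245 to 3571649, minus strand), the partner of Dpr6 and Dpr10, held 1 summit in a later intron. Its region at 3546132 to 3546543 had a signal of 1218, rank 828. The ranks in the replicates were 814 (signal 787) and 902 (signal 436). It lay 25314 bases downstream of the first start and 225 bases from the start of lncRNA:CR34335. The region thus stood at a similar place in both replicate orders and at a non-coding start inside the gene.

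In side-IV (FBgn0038156, 3R, 13450590 to 13464184, plus strand), which encodes the partner of Beat-IIa and Beat-IIb, the single summit lay in an intron 2404 bases downstream of the start. The region at 13452789 to 13453243 had a signal of 920, rank 1356, with ranks of 1368 (signal 581) and 1432 (signal 335) in the replicates. No other coding start lay within 18010 bases of it and no non-coding start within 8918. It was the strongest member summit with no other gene's start close by.

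Both dpr genes with a summit shared it with a neighbour. For dpr14 (FBgn0029974, X, 7903704 to 7908286, minus strand) the summit lay 455 bases upstream of the start and 190 bases from the start of spidey, the gene of a steroid and fatty acid metabolising enzyme. Its signal was 607, rank 2529, with replicate ranks of 2584 (signal 377) and 2450 (signal 234). For dpr19 (FBgn0032233, 2L, 10376168 to 10379905, plus strand) the summit lay 341 bases upstream of the start and 70 bases from that of CG33303, with a signal of 324, rank 5544 and replicate ranks of 7079 (signal 163) and 3545 (signal 178). Both IDR summits were closer to the neighbour's start than to that of the dpr gene. They are also among the shortest dpr genes, at 4.58 and 3.74 kb.

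The start of beat-IIIc (FBgn0032629, 2L, 17187637 to 17260734, minus strand) held a summit that was not shared, 101 bases upstream of it and 25405 bases from the nearest other coding start. Its signal was 209, rank 8703, with replicate ranks of 9114 (signal 127) and 7953 (signal 90.5). An intron summit 17137 bases downstream had a signal of 404, rank 4286, with replicate ranks of 3960 (signal 274) and 4928 (signal 138). Another, 53456 bases downstream, had a signal of 269, rank 6756, with replicate ranks of 7483 (signal 155) and 6664 (signal 106). By distance from the start this was the most spread out set among the members.

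Side-V (FBgn0085400, 2R, 23163012 to 23203973, minus strand) held 3 summits of low signal. They lay 38, 1795 and 16619 bases downstream of its start, with signals of 199, 258 and 205. The middle one ranked 7078, with replicate ranks of 6340 (signal 181) and 10164 (signal 70.9). The first of them ranked 9145 in replicate 1 (signal 126) and 15998 in replicate 2 (signal 42.3). It was the only member summit whose region overlapped none of the strongest 10918 regions of replicate 2. The other 13 overlapped such a region in both replicates, from which the IDR list was itself derived.

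**Figure D3:**
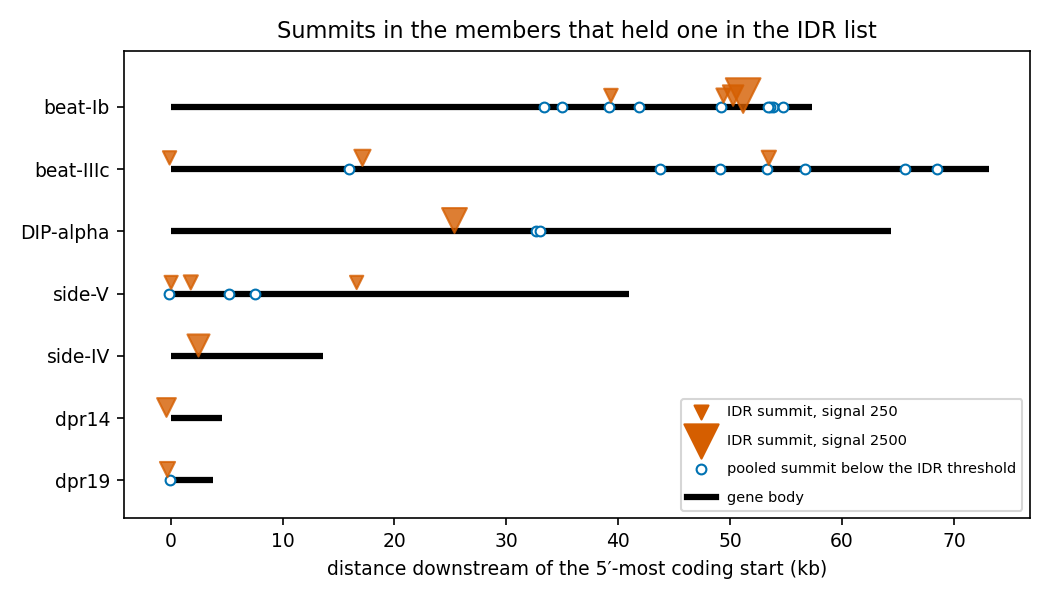
Summits in the 7 members that held one in the IDR list, by distance downstream of the 5′-most coding start (x axis, kb); filled triangles are IDR summits with area growing with signal, open circles weaker summits of the pooled list, black lines gene bodies. The large triangles of beat-Ib and DIP-alpha lie 51163 and 25314 bases into the genes, while those of dpr14 and dpr19 lie just upstream of the start.

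Counting starts alone, 4 members (dpr14, dpr19, beat-IIIc and side-V) had a summit within 500 bases of a start, or 7.41% (Wilson interval 2.92 to 17.6). The share was 35.5% among all other coding genes and 49.1% when weighted to the members' lengths. No DIP gene had one (0 of 11, upper bound 25.9%, other genes 48.7% by length). Without summits within 500 bases of another coding gene's start, 2 starts were left, those of beat-IIIc and side-V. By the same restriction 5 members held a summit anywhere, next to 22.5% of other coding genes and 58.4% by length, and no dpr gene did.

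The sequences at the strongest summit of 5 of these genes and at the unshared beat-IIIc start show what the enriched places look like. Each covers 100 bases either side of the summit, on the plus strand of dm6, read from RefSeq's Release 6 genome. Capitals mark matches, on either strand, to TATCGATA (the DNA replication-related element of housekeeping promoters), GGTCACAC (core promoter Motif 1), GAGAGAG (a repeat bound by the GAGA factor Trl), TATAAA (the TATA box core) and TAATTA (a homeodomain core). A match is a description of the letters only.
beat-Ib, chr2L:15911172-15911372: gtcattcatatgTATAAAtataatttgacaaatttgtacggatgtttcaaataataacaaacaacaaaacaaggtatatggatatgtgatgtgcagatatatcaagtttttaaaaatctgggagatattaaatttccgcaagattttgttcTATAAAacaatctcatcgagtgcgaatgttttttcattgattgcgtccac
DIP-alpha, chrX:3546235-3546435: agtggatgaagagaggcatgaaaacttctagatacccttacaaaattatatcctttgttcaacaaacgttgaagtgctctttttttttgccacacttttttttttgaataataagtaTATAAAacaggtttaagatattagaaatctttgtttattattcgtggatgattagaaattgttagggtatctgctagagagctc
side-IV, chr3R:13452894-13453094: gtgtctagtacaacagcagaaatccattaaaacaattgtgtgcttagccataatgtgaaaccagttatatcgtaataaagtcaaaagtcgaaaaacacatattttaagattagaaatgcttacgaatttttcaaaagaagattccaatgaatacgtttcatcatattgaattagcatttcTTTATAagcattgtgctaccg
dpr14, chrX:7908641-7908841: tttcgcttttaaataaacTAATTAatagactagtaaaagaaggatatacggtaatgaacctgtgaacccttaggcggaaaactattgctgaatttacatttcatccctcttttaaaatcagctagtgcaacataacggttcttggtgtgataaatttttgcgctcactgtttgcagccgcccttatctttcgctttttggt
dpr19, chr2L:10375727-10375927: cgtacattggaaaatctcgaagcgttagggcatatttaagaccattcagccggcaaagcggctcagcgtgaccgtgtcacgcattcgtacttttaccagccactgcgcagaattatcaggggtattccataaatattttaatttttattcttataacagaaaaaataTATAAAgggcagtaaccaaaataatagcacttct
beat-IIIc, chr2L:17260735-17260935: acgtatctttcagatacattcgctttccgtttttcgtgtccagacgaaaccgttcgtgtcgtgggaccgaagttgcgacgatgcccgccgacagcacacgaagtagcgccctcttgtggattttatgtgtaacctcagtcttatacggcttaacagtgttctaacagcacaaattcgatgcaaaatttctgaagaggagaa

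The intron windows of beat-Ib, DIP-alpha and side-IV were AT-rich, with a G+C content of 28.9%, 30.3% and 30.3%, and each held TATAAA. The windows of dpr14, dpr19 and the beat-IIIc start were at 36.3%, 38.8% and 46.8%. Over the 14 member summits mean G+C was 34.3% ± 8.29 (SD over summits), with a range of 23.4 to 48.8. That was close to all 10918 IDR summits, 35.8% ± 7.45. The 4079 intron summits away from starts were at 34.7% ± 6.44, but the 14 mix intron and start summits. The members' intron windows were at 23.4, 23.9, 24.4, 28.9, 29.4, 30.3, 30.3, 36.8, 39.8 and 41.8%. Their start windows were at 36.3, 38.8, 46.8 and 48.8%. Member means by place are not given here. TATAAA was present in 6 of 14 (42.9%, all summits 35.6%) and TAATTA in 3 (21.4%, all summits 17.2%). TATCGATA was present once (7.14%, all summits 3.80%), at the INE-1 insertion in beat-Ib. No member summit held GGTCACAC or GAGAGAG, which 2.58% and 4.15% of all summits held. None of these differences was tested.

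The other 47 members held no IDR summit. The dpr genes among them were dpr1 to dpr13, dpr15 to dpr18, dpr20 and dpr21. The DIP genes were DIP-beta, DIP-gamma, DIP-delta, DIP-epsilon, DIP-zeta, DIP-eta, DIP-theta, DIP-iota, DIP-kappa and DIP-lambda. The beat genes were beat-Ia, beat-Ic, beat-IIa, beat-IIb, beat-IIIa, beat-IIIb, beat-IV, beat-Va, beat-Vb, beat-Vc, beat-VI and beat-VII, and the side genes side itself, side-II, side-III, side-VI, side-VII and side-VIII. They lay on every arm: by arm, members with a summit numbered 3 of 16 on 2L, 1 of 7 on 2R, 0 of 4 on 3L, 1 of 21 on 3R, 0 of 1 on 4 and 2 of 5 on X. Among other coding genes the share with a summit was 36.7 to 43.0% on each arm.

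Most were also empty in the longer list. The pooled list, made from both replicates together before the threshold, held 29981 regions on the arms down to a signal of 42.4. In it 12 members had a summit (22.2%, Wilson interval 13.2 to 34.9), against 55.3% of other coding genes and 74.5% by length. At a start, 6 members had one, against 66.9% by length. The 5 members that appeared only there were beat-IIIa with 4 summits (strongest 102), dpr18 with 2 (strongest 64.6), dpr20 (64.9), beat-Ic (56.2) and dpr6 (53.9). The regions of the 4 beat-IIIa summits overlap in pairs. The dpr6 summit lay 282 bases upstream of the start and overlapped a region in replicate 2 alone. All 5 had signals under the IDR list's lowest value of 164. This was fixed in advance, because the IDR list is the strongest part of the pooled list. Of the replicate lists of 30000 regions each, that of replicate 1 gave 12 members and that of replicate 2 also 12, with 9 in both. Other genes of the members' lengths reached 75.6% and 74.7%. In none of these 3 lists did 39 members hold a summit. The shares of other genes empty in all 3 lists, or present in both replicate lists, are not given here. The counts of 39 and 9 are therefore description only.

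At the threshold, the weakest member summits inside the IDR list were at side-V (199 and 205) and beat-IIIc (209). The strongest ones outside it were at dpr19 (163), beat-Ib (160) and beat-IIIc (144). All of them belong to genes that already held an IDR summit. Those at dpr19 and beat-Ib have regions that overlap an IDR region of the same gene. Unlike the IDR summit of dpr19, the weaker one was closer to its own start (66 bases) than to that of CG33303 (345 bases). The strongest summit of a member with no IDR summit was the one at beat-IIIa (102).

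Known binding partners can be set side by side. DIP-alpha held 1 IDR summit, and its partners dpr6 and dpr10 held 0. DIP-gamma and its partner dpr11 held 0 each, as did DIP-delta and dpr12. Beat-Ia and side, the pair that steers motor axons, held 0 each, and neither had a pooled summit. Side-IV held 1, and beat-IIa and beat-IIb 0. Side-VI with beat-Va, beat-Vb and beat-Vc, and side-II with beat-VI, held 0 throughout. With so few members holding a summit, these pairs say nothing of partners as such.

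The members lay in wide stretches without any summit. Between neighbouring IDR summits on an arm, the stretch that held the gene's start had a median length of 147 kb for the 52 members that lie between summits, and 19.8 kb for other coding genes. The starts of dpr21 and DIP-lambda, near the centromere of their arm, lay outside the outermost summit. A stretch of over 100 kb, a length chosen after seeing the values, held the start of 38 of 52 members (73.1%), against 15.3% of other coding genes. A gene with no summit has a long stretch in part by its own length. Among genes of 20 kb or more without an IDR summit, 28 of 30 members (93.3%) had a stretch over 100 kb, and 49.5% of 279 other genes. The medians were 196 and 98.7 kb.

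Clustered members shared stretches. The starts of beat-Ia, beat-Ib and beat-Ic lay in a single stretch of 329 kb, the fifth longest on the arms, bounded on one side by the beat-Ib summit at the INE-1 insertion. A stretch of 319 kb held the starts of beat-IIIa and beat-IIIb. Those of beat-Va, beat-Vb and beat-Vc shared 234 kb, dpr6 and dpr10 shared 252 kb, and DIP-eta and DIP-theta 197 kb. Side-VI lay in 310 kb, side-II in 289 kb, and side in 261 kb. In all, 29 of the 173 stretches over 100 kb held a member's start. Members that share a stretch are not independent.

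**Figure D4:**
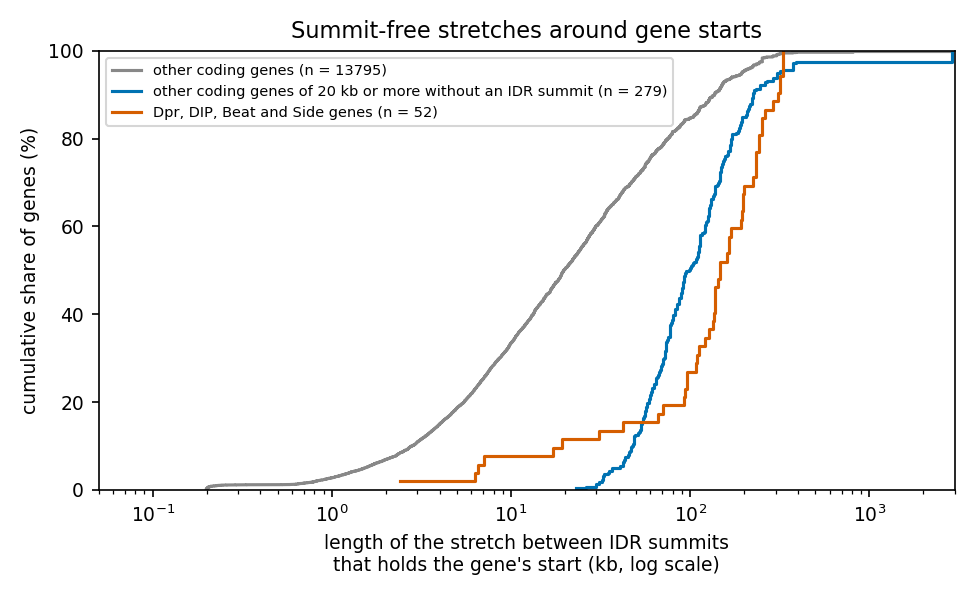
Cumulative share of genes (y axis, percent) by the length of the stretch between neighbouring IDR summits that holds the gene's start (x axis, kb, log scale), for the members, all other coding genes, and other coding genes of 20 kb or more without an IDR summit. The members' median is 147 kb, to the right of both other curves (19.8 and 98.7 kb).

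The neighbourhood was sparse as well. Of the 100 coding genes that flank a member without overlapping it, 21 (21.0%) held an IDR summit, where 39.5% would by their lengths. Measured from the start, the nearest IDR summit was a median of 38.9 kb away for members and 2.83 kb for other coding genes. By median, repeat content was close to that of other long genes. A median of 17.8% of the members' length was soft-masked in the reference (range 8.92 to 43.0%). Other genes of 20 kb or more had a median of 17.7%, while the members' value includes shorter genes. Of the members 42 (77.8%) had 1 coding start, against 73.5% of other coding genes and 41.7% by length. Weighted by length and number of starts together, 54.1% of other genes held a summit, and 36.6% a summit at a start.

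Other cell surface genes of the immunoglobulin superfamily can be set beside them. Among 22 such genes and cDIP, a leucine-rich repeat protein that binds DIPs, 15 of 23 held an IDR summit (65.2%), close to the 62.9% of genes of their lengths. Summed over genes they had 91 summits, of which 41 lay in kirre, a muscle founder cell receptor whose span also holds rst and its 3 summits. Fas3, a homophilic adhesion protein, had 10, and the guidance receptors fra and robo2 had 7 each. None was found at Dscam4, bdl, hbs, klg, robo1, robo3, sns or cDIP. The list was chosen by hand, and the difference from the Dpr, DIP, Beat and Side genes was not tested.

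The members' starts were rich in G+C. From 250 bases before to 50 after the 5′-most coding start, mean G+C was 49.0% ± 7.50 (SD over 54 genes), against 39.0% ± 7.72 in other coding genes and 43.6% when weighted by length. It exceeded the median of all other genes (38.0%) in 49 of 54 members and their upper quartile (44.3%) in 45. Most of those genes are shorter than the members. Other genes of 20 kb or more had a median of 44.7% and an upper quartile of 51.7%. The family medians were 49.7% for dpr and beat, 50.3% for DIP and 51.7% for side, none above that upper quartile. By family the means were 46.9% ± 8.98 for dpr (n = 21), 50.8% ± 5.99 for DIP (n = 11), 48.7% ± 6.54 for beat (n = 14) and 52.4% ± 5.74 for side (n = 8). The lowest members were dpr21 (26.7%), dpr19 (29.7%) and dpr7 (31.0%), and the highest was side-VIII (59.3%). In other genes the means were 38.1% with a summit at the start and 39.5% without.

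**Figure D5:**
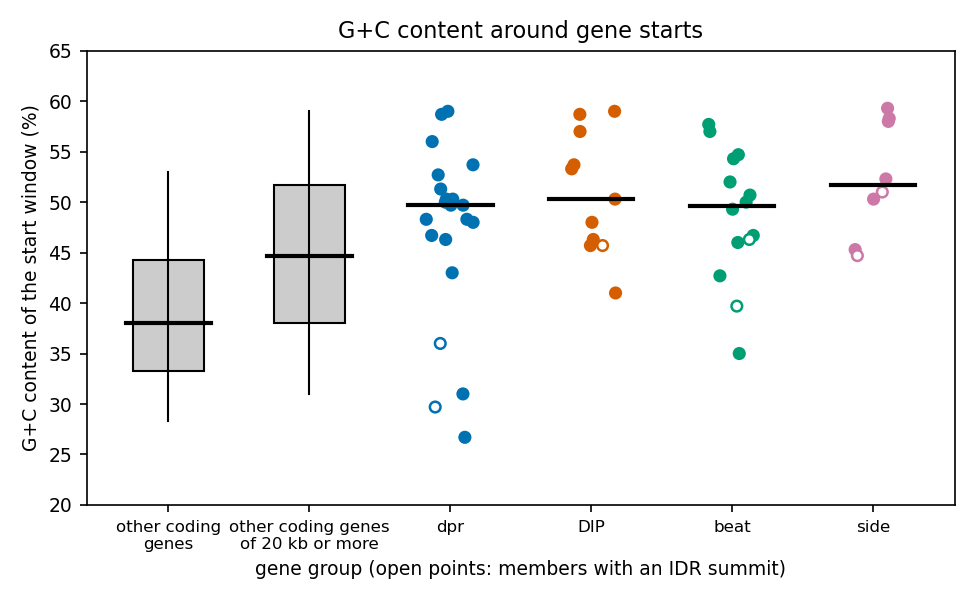
G+C content of the window from 250 bases before to 50 after the 5′-most coding start (y axis, percent) for each member by family, with open points for members with an IDR summit and lines at family medians; boxes show quartiles and median, whiskers the 5th and 95th percentiles, of all other coding genes and of those of 20 kb or more (median 44.7%). Of the 54 members, 49 lie above the median of all other coding genes, 38.0%.

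The same words were counted in these start windows, which were chosen after other values were seen. GAGAGAG was present in 13 member windows (24.1%, Wilson interval 14.6 to 36.9), against 5.80% of other genes and 15.7% by length. Of these 13 genes 1 held an IDR summit, beat-Ib, beside 7 of all 54 members (13.0%). At a start 0 of the 13 had one, beside 4 of 54 (7.41%). Such small counts cannot show whether the word and summits are linked. TATAAA was present in 8 (14.8%, interval 7.70 to 26.6), against 45.9% and 32.4% by length, and TAATTA in 4 (7.41%, interval 2.92 to 17.6), against 20.5% and 14.4%. TATCGATA was found once (1.85%, interval 0.328 to 9.77), at dpr14, against 9.39% and 7.05%, and GGTCACAC not at all (upper bound 6.64%), against 7.73% and 7.80%. In other genes with a summit at the start, TATCGATA was at 15.6% and GGTCACAC at 12.1%, and in those without at 5.97% and 5.32%. The other 3 words hardly differed between such genes with and without a summit at the start: GAGAGAG was at 6.14% and 5.60%, TATAAA at 45.6% and 46.0%, and TAATTA at 22.2% and 19.6%. For TATAAA and the word GGTCACAC the length-weighted share lies outside the members' interval, and for the other 3 words inside it. The counts of AT-rich words move with G+C content, whose part was not tested.

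The windows of 4 starts, picked by hand, show what these words look like in place: dpr14 holds the single TATCGATA, and dpr6, beat-Ia and side hold GAGAGAG. They are examples of the words and no comparison of starts with and without a summit. The dpr14 summit lies upstream of the window shown, and the starts of dpr19, beat-IIIc and side-V have a summit and no TATCGATA. They run 5′ to 3′ on the strand of the gene, on dm6, with the same words in capitals. Their G+C content is 36.0%, 50.3%, 49.3% and 58.3%.
dpr14, chrX:7908237-7908536, minus strand: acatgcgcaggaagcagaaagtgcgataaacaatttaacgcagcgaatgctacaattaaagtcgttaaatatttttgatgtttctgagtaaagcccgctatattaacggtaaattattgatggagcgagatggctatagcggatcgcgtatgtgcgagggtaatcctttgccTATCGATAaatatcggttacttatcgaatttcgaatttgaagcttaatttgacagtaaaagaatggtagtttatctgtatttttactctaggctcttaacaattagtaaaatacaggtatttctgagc
dpr6, chr3L:9974401-9974700, plus strand: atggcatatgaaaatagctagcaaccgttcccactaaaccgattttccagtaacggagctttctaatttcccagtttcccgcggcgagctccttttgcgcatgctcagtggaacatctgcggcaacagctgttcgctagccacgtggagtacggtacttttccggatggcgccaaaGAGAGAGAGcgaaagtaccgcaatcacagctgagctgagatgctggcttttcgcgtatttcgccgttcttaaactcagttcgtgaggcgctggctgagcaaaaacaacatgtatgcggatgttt
beat-Ia, chr2L:16049715-16050014, plus strand: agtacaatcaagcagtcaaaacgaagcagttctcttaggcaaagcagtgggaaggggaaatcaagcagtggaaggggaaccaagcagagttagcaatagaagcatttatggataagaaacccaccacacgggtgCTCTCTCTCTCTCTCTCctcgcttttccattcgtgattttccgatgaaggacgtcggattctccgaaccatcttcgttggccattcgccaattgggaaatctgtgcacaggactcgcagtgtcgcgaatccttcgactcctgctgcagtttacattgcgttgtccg
side, chr3R:27437433-27437732, minus strand: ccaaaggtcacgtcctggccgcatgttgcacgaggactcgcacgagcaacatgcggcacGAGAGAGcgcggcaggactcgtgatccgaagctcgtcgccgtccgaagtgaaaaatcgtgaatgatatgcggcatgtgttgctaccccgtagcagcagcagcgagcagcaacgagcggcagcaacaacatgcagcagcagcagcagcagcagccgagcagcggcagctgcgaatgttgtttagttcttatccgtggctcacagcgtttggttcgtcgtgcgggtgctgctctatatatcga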

How the data were processed

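The series measured regions enriched by ChIP-seq of GFP-tagged espinas in 2 replicates of whole white prepupae. Peak lists on dm6 were made by the authors, per the deposited file descriptions, from each replicate and from both pooled, each with a further input file whose kind those descriptions do not state, and from these a list kept after an IDR threshold. Neither the caller nor the threshold is given in the sources used here. Each region's signal value is the authors' and its scale is not stated; the deposited offset from region start to summit (another number, in bases) gave the summits. Files give no read counts, so depth is unknown. The IDR list was exactly the strongest part of the pooled list.

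The gene models are those of Ensembl (BDGP6.54, release 115), and sequence is that of RefSeq's Release 6 genome, both with dm6 coordinates, 1-based. Regions off the main chromosome arms were left out, which kept 10918 of 10936 IDR regions. Lists on dm3 were not used. Length classes had edges at 2, 5, 10, 20, 40 and 80 kb. Shares carry 95% Wilson intervals. No test was made. Genes were named by family, every member being accounted for, with the strongest summits in full. Members, related genes and alternatives were chosen with earlier results of these data known; the start windows, stretches and flanking genes were added after values were seen. Assignment of summits to genes was checked against a direct search on simulated data. Python 3.11.15, numpy 2.4.6, pandas 2.3.3, scipy 1.17.1 and matplotlib 3.10.9 were used.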

Additional observations from a re-analysis of the deposited data

How the results depend on the processing

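The number of members with an IDR summit was 7 as reported, 7 with either replicate alone, 5 in the list's upper part above its median signal (here the upper part), 5 at 250 bases and 8 at 1000 bases, where dpr20 joined. The same 7 genes were found in the strongest 10918 regions of each replicate. Starts with a summit fell from 4 to 1 in the upper part, 2 without summits shared with another coding gene and 2 at 250 bases. The matching shares of other genes' starts are not given here, so these falls describe the settings only. Density fell from 0.0436 to 0.0198 per 10 kb in the upper part. The length-weighted share of other genes, 64.7%, was 50.6% in the upper part, 58.4% without shared summits, 62.7% at 250 bases, 65.9% at 1000 bases and 54.1% when also weighted by number of starts, which was added after seeing the data. Mean G+C at member summits, 34.3%, was 32.8 to 33.6% with 1 replicate alone, 29.8% in the upper part, 33.0% without shared summits and 32.7% within 50 bases. Fewer summits in the upper part and in the restricted counts follow from their construction, and the cause of the other shifts was not tested. Pooled summits inside a region of both replicate lists left 8 of 12 members, and the share of other genes under that setting is not given here. No paired analysis was possible because there was 1 group. Depth is unknown, so a missing summit means only that no region was listed.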

Other observations

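Weak regions in a single list reached 3 further members. The side gene had 1 summit in the list of replicate 1 (signal 54.6), and dpr16 (37.1, at a start) and DIP-iota (18.2) 1 each in that of replicate 2. None of the 3 was in the pooled list or in the other replicate's list. The nearest IDR summit to the start of dpr20 lay 580 bases from it, just beyond the distance used.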
